A study of Sus scrofa with 36 samples.

Results

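The mRNAs of the ribosomal proteins of the 2 ribosomes of the cell, the cytosolic ribosome and the ribosome inside mitochondria, were followed in neonatal pig hearts from postnatal day 1 (P1) to P28. Members were all protein-coding genes of the gene count table named RPL or RPS (cytosolic large and small subunit) or MRPL or MRPS (mitochondrial large and small subunit) with a number, without the RPS6K kinases. The rule named 42 genes, of which 41 reached a minimum of 10 counts in 3 or more libraries, as did 5526 of the 9815 genes in the table. These were 23 cytosolic genes (12 of the large and 11 of the small subunit) and 18 mitochondrial genes (14 and 4). The gene left out, RPL10L, a retrogene copy of RPL10, had 0 counts in every library. The table used here holds genes of chromosomes 1, 2, 6 and 13, and ribosomal protein genes elsewhere in the genome were not analysed here.

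The hearts came from untreated, normally fed Yorkshire pigs, a domestic breed, at 4 ages: P1, P3, P7 and P28. Total RNA of 12 pigs, 3 at each age, was depleted of ribosomal RNA and sequenced by CD Genomics, and reads were counted per gene. The study compared the ages to follow RNA expression, above all that of circular RNAs, in the developing heart after birth. Libraries are named by their age and the number in their column name, so P7_5 is the P7 library with number 5. Whole heart tissue holds cardiomyocytes and other cells, and in such bulk samples a lower level through fewer cells of a type and one through less RNA per cell cannot be told apart.

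The cytosolic ribosome translates the mRNAs made in the nucleus, and its proteins join ribosomal RNA to form a large and a small subunit, which need their proteins in fixed proportions. Many of these mRNAs begin with a run of pyrimidines through which nutrient and growth signals acting through mTOR control their translation. The mitochondrial ribosome translates the few mRNAs of the mitochondrial genome, which encode core subunits of the respiratory chain. Its own proteins are encoded in the nucleus and imported. The heart depends on both, since it grows in mass after birth while it turns from glycolysis to oxidation of fatty acids in its mitochondria.

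The 12 libraries held between 8887176 and 14883849 gene counts, and no member fell below 227 counts in any library. The counts themselves therefore limited precision little, and the spread between libraries set it. Between 7.09% and 19.7% of the counts lay in Metazoa_SRP genes, the RNA of the signal recognition particle, and this share was lowest in P7_5 and highest in P7_6. Levels are given as CPM, the count of a gene relative to the library total in the usual fixed unit, after TMM scaling, which corrects library totals for such skewed shares. The 7 cardiomyocyte markers tested summed to between 69781 and 91805 CPM in every library, as the heart label asks. Their sum was lower at P7 (69781 to 78015) than at P1 (81416 to 89871) and P28 (78666 to 91805). The 3 markers of dividing cells tested, CCNB2, BUB1B and MCM2, summed to 113 to 142 CPM at P1, 102 to 208 at P3, 353 to 465 at P7 and 39.5 to 108 at P28. The 6 fibroblast and matrix markers summed to 5676 to 5948 CPM at P1, 5456 to 5988 at P7 and 1797 to 2126 at P28, and the 7 leukocyte markers to 478 to 673, 408 to 537 and 728 to 1182. At the same ages the 5 endothelial markers summed to 918 to 1218, 935 to 1252 and 849 to 906 CPM and the 2 erythroid markers to 134 to 152, 157 to 195 and 182 to 211. The erythroid sum was mostly that of FECH, and from P7 to P28 FECH and EPB42, the other marker, changed in opposite directions. No listed marker in the table was at 0 counts in all 12 libraries, and the part of these cell shares in the results below was not tested.

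Together the 23 cytosolic genes were high at P1, lowest at P7 and high again at P28, whereas the mean sum of the 18 mitochondrial genes changed less between ages. The summed level of the cytosolic genes was 21120.0, 22324 and 21588 CPM in the 3 libraries of P1, 20827, 16949.5 and 22701 at P3, 16831, 15417 and 19570.3 at P7 and 23501, 22846 and 20863 at P28. All P7 libraries lay below all P1 and all P28 libraries, and P3 spanned most of the range, with P3_5 low and P3_6 high. The mitochondrial sum was 1888, 1909.5 and 1937 CPM at P1, 1796, 1553 and 2098 at P3, 1791, 1698 and 1749 at P7 and 1816, 1806 and 1759 at P28. Here too every P7 library lay below every P1 library, but by less. Every P28 library also lay below every P1 library, which was not so for the cytosolic sum. From P1 to P7 the mean sum changed 0.797-fold for the cytosolic and 0.913-fold for the mitochondrial ribosome. From P7 to P28 it changed 1.30-fold and 1.03-fold, and from P1 to P28 it changed 1.03-fold and 0.938-fold.

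The ratio of the 2 sums, which does not depend on how a library is scaled, described the same course. It was 11.2, 11.7 and 11.1 at P1, 11.6, 10.9 and 10.8 at P3, 9.40, 9.08 and 11.2 at P7 and 12.9, 12.7 and 11.9 at P28. The P28 libraries lay above all others, and 2 of the 3 P7 libraries below all others, with P7_6 among the P1 values. On another scale, as a share of all protein-coding counts, the cytosolic genes took 2.68% ± 0.139 at P1, 2.26% ± 0.285 at P7 and 2.65% ± 0.0681 at P28 (SD, n = 3), and on this scale P7_6, at 2.58%, overlapped both other ages. The mitochondrial genes took 0.227% to 0.242% at P1, 0.222% to 0.233% at P7 and 0.207% to 0.217% at P28.

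**Figure D1:**
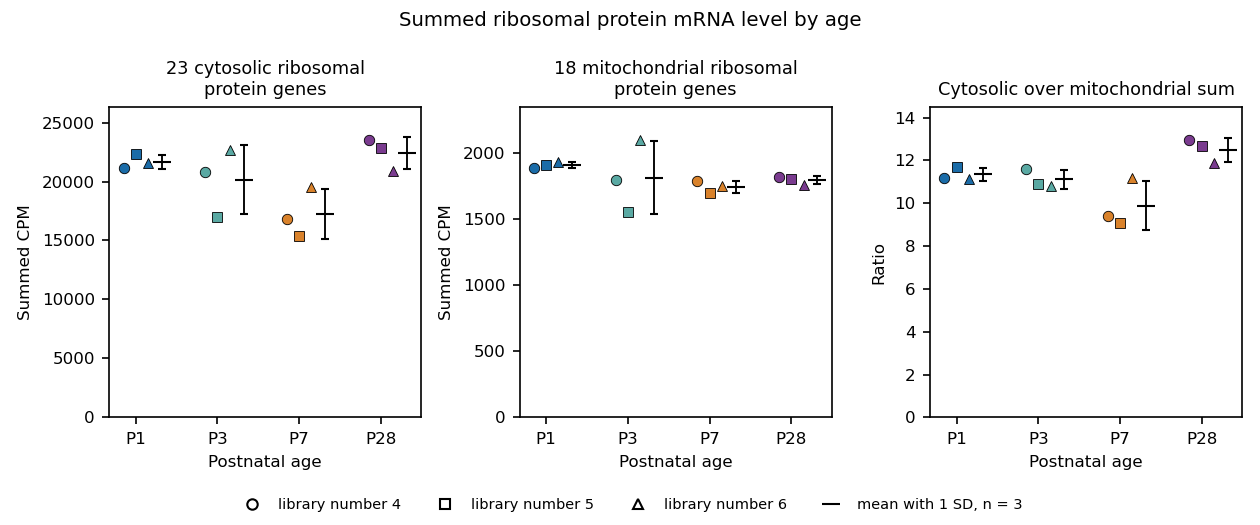
Summed CPM of the 23 cytosolic genes (left), of the 18 mitochondrial genes (middle) and the ratio of the sums (right) in each of the 12 libraries by postnatal age, with the symbol giving the library number and the bar the mean with 1 SD of 3 libraries. The cytosolic sum was 17273 ± 2112 CPM at P7 against 21677 ± 607 at P1 and 22404 ± 1374 at P28, while the mitochondrial sum kept between 1553 and 2098 CPM in all libraries.

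Per kilobase of listed gene length, which allows genes to be compared, the cytosolic genes were the more abundant. Their level averaged over the 12 libraries had a median of 381 CPM per kilobase and was lowest for RPS27L (21.1) and RPL22L1 (22.4), paralogs of the core proteins RPS27 and RPL22. RPS12, in the beak of the small subunit, was among the most abundant, at 1453. The mitochondrial genes had a median of 56.3 CPM per kilobase, from 10.4 for MRPL49 and 13.5 for MRPL50, both found in mitochondrial but not bacterial ribosomes, to 82.8 for MRPL20 and 152 for MRPS15, which have bacterial counterparts. Listed lengths cover all annotated exons and run long for some short mRNAs, so these are levels relative to the annotation.

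At P7 every cytosolic gene had a lower mean than at P1, but a single one passed the test. The log2 fold changes of the 23 genes had a median of -0.32 and ran from -0.65 to -0.10, and 23 of 23 were below 0, against a median of -0.01 and 51.2% below 0 over all genes tested. The 18 mitochondrial genes had a median of -0.12, from -0.40 to 0.23, with 13 below 0. By edgeR's quasi-likelihood test with Benjamini-Hochberg adjustment over all 5526 genes, 1 cytosolic and 0 mitochondrial genes had an adjusted p under 0.05, where 2.01% of all genes did (0.543% lower at P7). At an unadjusted p under 0.05 it was 10 cytosolic and 2 mitochondrial genes, against 16.1% of all genes. The 3 P7 libraries lay below the 3 P1 libraries without overlap in 19 of 23 cytosolic and 7 of 18 mitochondrial genes, where 15.2% of all genes did, and 1 mitochondrial gene lay above (15.3% of all genes did). From P1 to P7 2 of the 3 markers of dividing cells were called higher (1.47% of all genes were), and no marker of the other lists was called. The cardiomyocyte sum was lower and the erythroid sum higher in all P7 than in all P1 libraries (values above). Median log2 fold changes were -0.13 for cardiomyocyte, -0.22 for fibroblast, -0.32 for leukocyte and 0.09 for endothelial markers. The part of these markers in the low cytosolic level was not tested.

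The gene that fell was RPS15 (ENSSSCG00000033169, chromosome 2, 77043332 to 77046747), a protein of the head of the small subunit close to the decoding site. RPS15 stood at 994, 1047 and 999 CPM at P1, 1011, 1016 and 1039 at P3, 666, 595 and 773 at P7 and 976, 1020.0 and 801 at P28. The P1 and P3 libraries lay within a few percent of each other, and all 3 P7 libraries lay below every other library. The log2 fold change from P1 to P7 was -0.58 ± 0.13 (SE, edgeR, adjusted p = 0.0398). That adjusted p passed 0.05 without any 1 of the P3 or P28 libraries but not without any 1 of the P1 or P7 libraries, where the number of cytosolic calls was 0. With the library number as a block in the fit the number of cytosolic calls was 0 as well. RPS29, RPS12 and RPS23 had changes of similar size and did not pass. They were chosen here after their values were seen and are a zinc-binding protein of the small-subunit head, a protein of its beak and a protein of the decoding centre. Their log2 fold changes from P1 to P7 were -0.65 ± 0.17, -0.55 ± 0.19 and -0.53 ± 0.18 (SE), with edgeR adjusted p-values of 0.0678, 0.161 and 0.16. RPS29 was at 899.7, 1039 and 935 CPM at P1 and 607, 490.1 and 739 at P7, with no overlap. Its listed gene body overlaps a Metazoa_SRP gene. With the thresholds of the study, which ask for a log2 fold change beyond 0.5 in size at an unadjusted p up to 0.05, these 4 small-subunit genes were called lower at P7 and no mitochondrial gene was, against 11.7% of all genes in either direction.

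**Figure D2:**
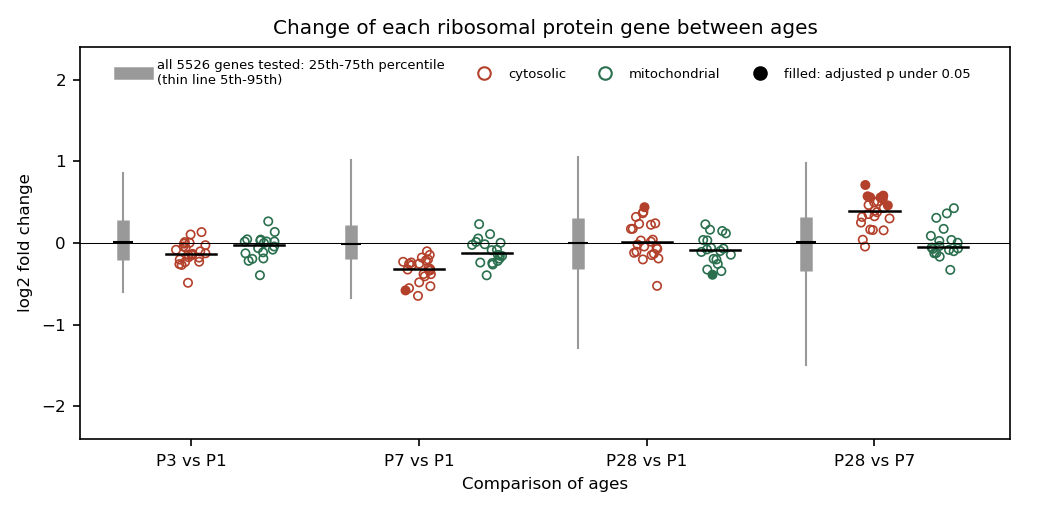
Log2 fold change (vertical axis) of each cytosolic and each mitochondrial ribosomal protein gene in the 4 comparisons of ages, with filled points for an adjusted p under 0.05 by edgeR, a black line at the median of each set, and in grey the range of all 5526 genes tested. The 23 cytosolic genes lie below 0 from P1 to P7 (median -0.32) and 22 of 23 above it from P7 to P28 (median 0.40), while the mitochondrial medians are -0.12 and -0.05.

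From P7 to P28 7 of the 23 cytosolic genes and none of the mitochondrial genes rose. The comparison shares its P7 libraries with the one above, so the 2 are not independent. The median log2 fold change was 0.40 and 22 of 23 genes were above 0, RPL22L1 being the exception, against 0.01 and 51.2% for all genes. The mitochondrial median was -0.05, with 8 of 18 above 0. The 7 cytosolic genes with an adjusted p under 0.05 by edgeR were all higher at P28, where 8.34% of all genes were called higher and 18.8% in either direction. Of the 18 mitochondrial genes 0 passed with edgeR, 3 had an unadjusted p under 0.05 (33% of all genes did), and DESeq2 called 2. Of the cytosolic genes 16 had an unadjusted p under 0.05. The P28 libraries lay above the P7 libraries without overlap in 17 of 23 cytosolic and 3 of 18 mitochondrial genes, where 23.7% of all genes did. Of the 7 cardiomyocyte markers 4 were called higher at P28 than at P7 and 0 lower, with a median log2 fold change of 0.43, although ACTC1, the most abundant of them, lay below P7 in all P28 libraries (log2 fold change -0.50, edgeR adjusted p = 0.06) and TPM1 stood at -0.11. Leukocyte markers were also higher, and those of dividing cells and fibroblasts lower, at P28 than at P7 (sums above). Of the 5 endothelial markers 1 was called lower (median -0.52), as was 1 of the 2 erythroid markers (EPB42, at under 10 CPM in all libraries). The part of these markers in the rise of the cytosolic genes was not tested.

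RPL24 (ENSSSCG00000011952, chromosome 13, 157411960 to 157418895), a large-subunit protein that forms a bridge to the small subunit, was among the 7. RPL24 stood at 758, 789 and 763 CPM at P1, 764, 575 and 709 at P3, 618, 604 and 718 at P7 and 961, 959.9 and 963 at P28. At P28 the 3 pigs were almost the same and above all others, and P3_5 and the P7 libraries P7_4 and P7_5 were the lowest. The rise from P7 to P28 was 1.49-fold, with a log2 fold change of 0.57 ± 0.12 (SE, edgeR adjusted p = 0.00679). RPL24 kept this call without any 1 of the 12 libraries.

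RPS15 returned from its low level at P7 with a log2 fold change of 0.46 ± 0.13 (edgeR adjusted p = 0.024), and P28_6, at 801 CPM, stayed close to the highest P7 library. RPS16, whose tail reaches the tRNA in the small subunit and which is named after its values were seen, was at 516, 419 and 623 CPM at P7 and 768, 788 and 737 at P28, a log2 fold change of 0.56 ± 0.17 (edgeR adjusted p = 0.0351). RPL11 and RPL36AL, described below, rose as well. The number of cytosolic calls was 2 without P7_4, without P7_5 or without P28_5 and 4 without P28_4 or without P28_6. It was 11 without P3_6 and 14 without P3_5, libraries of an age outside this comparison, and the cause was not tested.

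**Figure D3:**
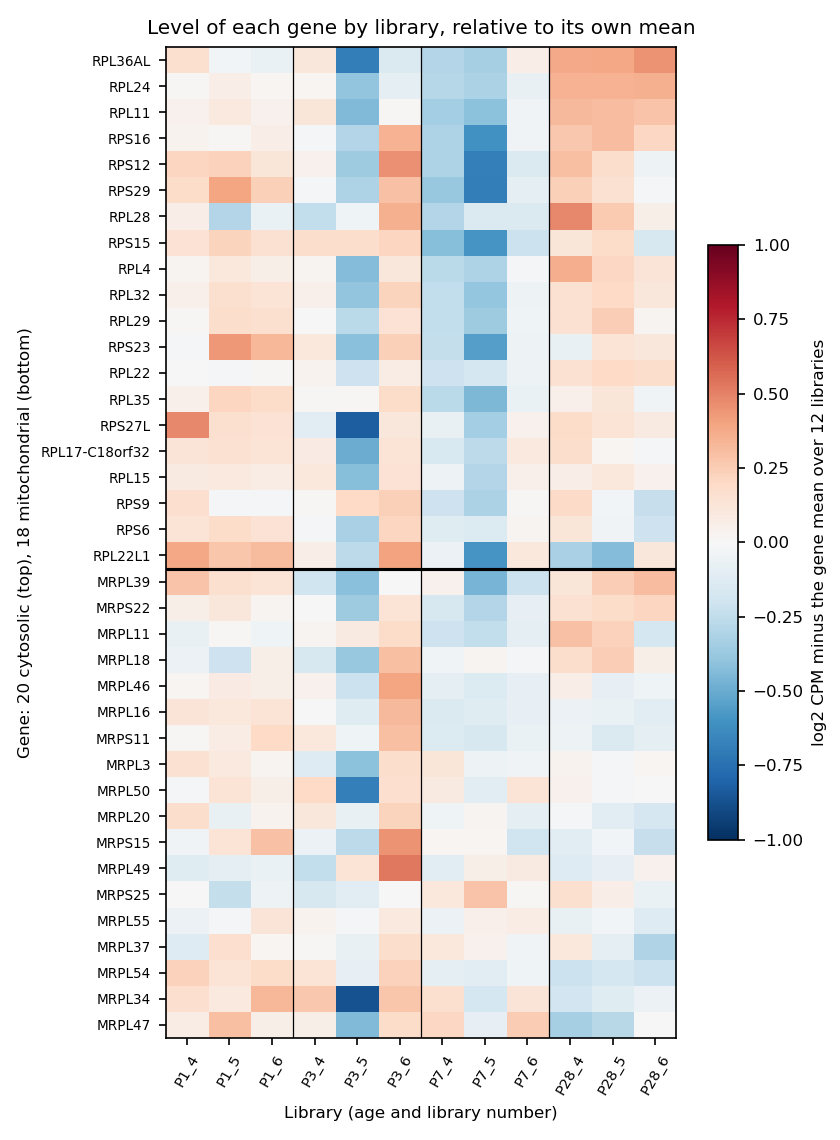
Level of each of 38 genes (rows, 20 cytosolic above the line and 18 mitochondrial below it, each ordered by its change from P7 to P28) in each of the 12 libraries (columns, by age), as log2 CPM minus the mean of the gene. Blue fills P7_4 and P7_5 for most cytosolic genes and P3_5 for genes of both ribosomes, and at P28 the upper cytosolic rows are red, while the mitochondrial rows hold no such block.

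Between P1 and P28, the ends of the series, the 2 ribosomes differed little from their start. The cytosolic genes had a median log2 fold change of 0.02, with 12 of 23 above 0, and the mitochondrial genes one of -0.09, with 6 of 18 above 0, against 0.00 and 50.3% for all genes. In each ribosome 1 gene had an adjusted p under 0.05 by edgeR, higher at P28 in the cytosolic ribosome and lower in the mitochondrial ribosome (MRPL54), where 15.3% of all genes were called. The counts at an unadjusted p under 0.05 were 4 of 23 and 1 of 18, against 30.7% of all genes. The ages did not overlap in 10 cytosolic genes (8 higher and 2 lower at P28) and 6 mitochondrial genes, where 44.4% of all genes were without overlap (22.5% higher and 21.9% lower). The share of calls lay below that of all genes in both ribosomes.

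From P1 to P28 RPL24 had a log2 fold change of 0.32 ± 0.12 and did not pass (edgeR adjusted p = 0.0963), although its P1 and P28 libraries did not overlap. RPL36AL stood at 0.38 ± 0.18 (edgeR adjusted p = 0.172).

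MRPL54 (ENSSSCG00000024242, chromosome 2, 74925070 to 74928167), a large-subunit protein of the mitochondrial ribosome without a bacterial counterpart, was the only mitochondrial member that passed with edgeR in any of the 4 comparisons. MRPL54 stood at 178, 167 and 172 CPM at P1, 167, 143 and 178 at P3, 143, 141 and 147 at P7 and 131, 134 and 130.4 at P28. All 3 P28 libraries were below the other 9, and all 3 P7 libraries were below all P1 libraries. The level at P28 was 0.764 of that at P1, a log2 fold change of -0.39 ± 0.11 (SE, edgeR adjusted p = 0.0292). Without any 1 of the P1 or P28 libraries the log2 fold change lay between -0.42 and -0.37 and the adjusted p was above 0.05.

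**Figure D4:**
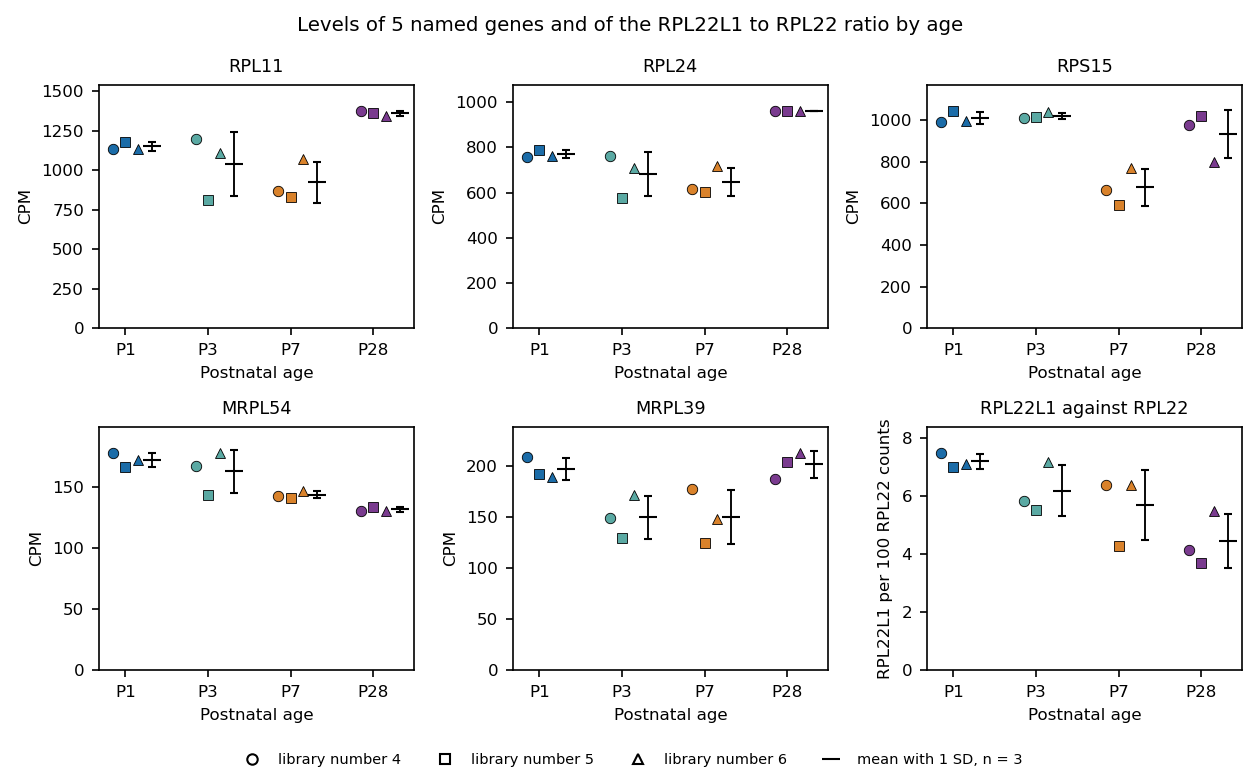
CPM of RPL11, RPL24, RPS15, MRPL54 and MRPL39 and RPL22L1 counts per 100 RPL22 counts in each library by postnatal age, with the symbol giving the library number and the bar the mean with 1 SD of 3 libraries. RPL11 and RPL24 are highest at P28, RPS15 is lowest at P7, MRPL54 is lowest at P28, and the RPL22L1 ratio runs from 7.50 at most at P1 to 3.69 at least at P28.

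At P3 no member passed the test, and the 3 libraries were spread widely. Library P3_5 was the lowest of all 12 for 9 cytosolic and 8 mitochondrial genes, and P3_6 was the highest for 7 and 10, so that both ribosomes were low in the first and high in the second. Marker sums at P3 ran from 3261 to 5856 CPM for fibroblast and matrix and from 843 to 1620 for endothelial markers. Those of cardiomyocyte, leukocyte and erythroid markers ran from 77495 to 89701, 463 to 598 and 128 to 161. Their part in this spread was not tested. The median log2 fold change from P1 to P3 was -0.13 for the cytosolic and -0.02 for the mitochondrial genes, and without P3_5 it was 0.01 and 0.07. No member of either ribosome had an adjusted p under 0.05 by edgeR or by DESeq2, where edgeR called 0.0543% of all genes. At an unadjusted p under 0.05 there was 1 of each, RPS27L and MRPL39, against 15.2% of all genes. Among the P7 libraries, P7_5 was the lowest of all libraries for 11 cytosolic genes and P7_6 stood closest to the P1 libraries.

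Both subunits of the cytosolic ribosome had lower medians at P7 than at P1 and higher ones at P28 than at P7, but from P1 to P28 their medians had opposite signs. From P1 to P7 the median log2 fold change was -0.25 over the 12 large-subunit genes and -0.38 over the 11 small-subunit genes, and from P7 to P28 it was 0.37 and 0.46. From P1 to P28 it was 0.11 over the large-subunit genes, with 8 of 12 above 0, and -0.06 over the small-subunit genes, with 4 of 11 above 0. The difference between the subunits was not tested. The summed CPM of the small-subunit genes divided by that of the large-subunit genes was 1.10, 1.14 and 1.10 at P1, 1.09, 1.24 and 1.16 at P3, 1.04, 0.989 and 1.04 at P7 and 1.06, 1.07 and 0.981 at P28. All P7 and P28 libraries were below all P1 libraries in this ratio. In the mitochondrial ribosome the same ratio kept between 0.380 and 0.413 in all 12 libraries. The 4 genes of the mitochondrial small subunit are few for such a sum.

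Variants and paralogs were described one by one, since tissues can exchange them for the core protein. RPL22L1 (ENSSSCG00000036114, chromosome 13, 109495553 to 109499921), the paralog of RPL22, was the least abundant cytosolic member by CPM and the only one whose mean was lowest at P28. RPL22L1 stood at 44.5, 41.2 and 42.4 CPM at P1, 35.5, 28.4 and 44.9 at P3, 32.7, 22.6 and 36.6 at P7 and 27.2, 25.2 and 36.8 at P28. RPL22 (ENSSSCG00000003369, chromosome 6, 67092517 to 67126639), an RNA-binding protein at the surface of the large subunit, known to repress its paralog, was at 593, 589.7 and 598 CPM at P1, 609, 514 and 625 at P3, 513, 526 and 571 at P7 and 658, 682 and 669.7 at P28. Per 100 RPL22 counts a library held 7.50, 6.98 and 7.09 RPL22L1 counts at P1, 5.83, 5.52 and 7.17 at P3, 6.38, 4.29 and 6.40 at P7 and 4.14, 3.69 and 5.49 at P28. The P28 libraries lay below the P1 libraries, with a ratio of means of 0.617. A two-sided exact permutation test of 3 against 3 libraries gave p = 0.1, the smallest it can give, or 0.2 adjusted over the 4 comparisons made. On its own RPL22L1 had a log2 fold change from P1 to P28 of -0.52 ± 0.21 (SE, edgeR adjusted p = 0.117), and it was the only member past the thresholds of the study in this comparison, which 23.1% of all genes passed.

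RPL36AL (ENSSSCG00000005006, chromosome 1, 179476639 to 179479148), a paralog of RPL36A, was among the 7 genes that rose from P7 to P28. RPL36AL stood at 138, 121 and 118 CPM at P1, 134, 76.6 and 112 at P3, 101.2, 98.4 and 129 at P7 and 161, 162 and 169 at P28. The P28 libraries were the 3 highest and P3_5 the lowest. The log2 fold change from P7 to P28 was 0.58 ± 0.18 (SE, edgeR adjusted p = 0.0402). RPL36AL overlaps the gene MGAT2 in the positions listed, and RPL36A itself was not analysed here. RPS27L (ENSSSCG00000023158, chromosome 1, 108881552 to 108890283), a paralog of RPS27 and a target of p53, was at 142, 114 and 113 CPM at P1, 95.01, 57.7 and 110.4 at P3, 97.3, 80.8 and 105 at P7 and 116, 112 and 109 at P28. Its P1 value in P1_4 and its P3 value in P3_5 were the extremes, and its log2 fold change from P1 to P3, -0.49 ± 0.20, did not pass (edgeR adjusted p = 0.287). RPL17 appears only within the readthrough gene RPL17-C18orf32, at 1476 CPM on average, and reads of the 2 parts are not separated. Ribosomal proteins have many processed pseudogenes and near-identical paralogs, and the treatment of reads that match several genes is not given in the sources used here, so absolute levels of such genes are uncertain.

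Of the genes known from inherited disease, RPL11 (ENSSSCG00000024260, chromosome 6, 81522726 to 81530459) and RPL15 (ENSSSCG00000037030, chromosome 13, 10716002 to 10719952) cause Diamond-Blackfan anemia when 1 copy is lost. RPL11, which with RPL5 and the 5S rRNA binds MDM2 and so links ribosome assembly to p53, was at 1132, 1181 and 1137 CPM at P1, 1196, 811 and 1110.1 at P3, 869, 828 and 1073 at P7 and 1377, 1361 and 1342 at P28. Its 3 P28 libraries were above the other 9. The log2 fold change from P7 to P28 was 0.56 ± 0.15 (SE, edgeR adjusted p = 0.0203). RPL15, deep in the large subunit, had 855, 723 and 919 CPM at P7 and 927, 951 and 913 at P28 and a log2 fold change of 0.16 ± 0.15 (edgeR adjusted p = 0.489). The difference between the 2 genes was not tested.

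MRPL3 (ENSSSCG00000011179, chromosome 13, 984980 to 1024507) and MRPS22 (ENSSSCG00000035771, chromosome 13, 79981676 to 80232774) are mitochondrial members whose recessive mutations cause a respiratory chain deficiency with cardiomyopathy. MRPL3, a core protein of the large subunit, was at 139, 134 and 127 CPM at P1, 115, 94.3 and 141 at P3, 136, 120.5 and 122 at P7 and 128, 124 and 127 at P28, where P3_5 was the lowest library and the other ages overlapped. Its log2 fold change from P1 to P28 was -0.08 ± 0.14 (edgeR adjusted p = 0.744). MRPS22, a small-subunit protein particular to mitochondria, was at 171, 178 and 167 CPM at P1, 164, 128 and 180.2 at P3, 147, 134 and 155 at P7 and 183, 187 and 191 at P28. Its P28 libraries lay above its P7 libraries, with a log2 fold change of 0.36 ± 0.13 that did not pass with edgeR (adjusted p = 0.0655).

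From P1 to P7 13 of the 18 mitochondrial genes had a log2 fold change below 0, where 51.2% of all genes did. None passed the test, and few had their lowest mean at P7. The age with the lowest mean was P7 for 5 of the 18, P28 for 7, P1 for 3 and P3 for 3, whereas it was P7 for 20 of the 23 cytosolic genes. MRPL39 (ENSSSCG00000012021, chromosome 13, 189148714 to 189167880), a mitochondria-specific protein of the large subunit, named after its values were seen, had its lowest mean at P3 and its highest at P28. MRPL39 stood at 209, 193 and 189.6 CPM at P1, 149.6, 129 and 171 at P3, 177, 124 and 148 at P7 and 187, 204 and 213 at P28. The P3 and P7 libraries were all below the P1 and P28 libraries. From P1 to P7 its log2 fold change was -0.40 ± 0.15 (SE, edgeR adjusted p = 0.186), and from P7 to P28 it was 0.43 ± 0.15 (adjusted p = 0.058).

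MRPL11, at the base of the stalk that binds translation factors and also named after its values were seen, was at 47.3, 46.1 and 51.1 CPM at P7 and 66.6, 63.9 and 48.3 at P28, where P28_6 fell among the P7 values. MRPL47, the mitochondrial counterpart of RPL35 at the exit tunnel and likewise named afterwards, had the opposite sign, with 81.2, 94.9 and 80.2 CPM at P1, 88.9, 73.04 and 91.7 at P7 and 61.4, 63.6 and 77.1 at P28. Its log2 fold change from P1 to P28 was -0.34 ± 0.17 (edgeR adjusted p = 0.193). The most and least abundant mitochondrial genes per kilobase, MRPS15, MRPL20, MRPL49 and MRPL50, had log2 fold changes from P1 to P28 of -0.26, -0.14, 0.04 and -0.06, none of which passed (smallest edgeR adjusted p = 0.327). The 8 mitochondrial genes not named so far, MRPL16, MRPL18, MRPL34, MRPL37, MRPL46, MRPL55, MRPS11 and MRPS25, had log2 fold changes between -0.33 and 0.23 from P1 to P28 (smallest edgeR adjusted p = 0.282) and between -0.24 and 0.23 from P1 to P7 (smallest adjusted p = 0.366). MRPS25, a small-subunit protein particular to mitochondria, had its highest library at P7, with 90.5, 76.3 and 86.7 CPM at P1 and 96.8, 109.9 and 90.8 at P7. The standard error of a mitochondrial log2 fold change was 0.15 on average and at most 0.24, so changes of the size of the cytosolic median could have been missed in single genes.

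The other cytosolic genes described differed in size rather than in sign from P1 to P7. RPL4, at the exit tunnel and the most abundant member by CPM, and RPS6, the substrate of the S6 kinases, were at 2029, 2147 and 2082 and 1869.6, 1923 and 1880.2 CPM at P1, 1658, 1614 and 1970.0 and 1562, 1546 and 1729.6 at P7 and 2572, 2303 and 2182 and 1848, 1661 and 1468 at P28. RPL4 was therefore above its P1 libraries again at P28, while RPS6 stayed below them. A further 6, RPL28, RPL29, RPL32, RPL35, RPS9 and RPL17-C18orf32, had log2 fold changes between -0.41 and -0.10 from P1 to P7 and between 0.16 and 0.47 from P7 to P28, and none passed with edgeR (smallest adjusted p = 0.0965 and 0.0649). These 8 genes fell outside the rule for named genes.

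The listed positions showed a feature that the rule did not use. Introns of ribosomal protein genes often hold genes of small nucleolar RNAs (snoRNAs), which guide the modification of ribosomal RNA. Of the 23 cytosolic genes 6 held 17 snoRNA genes within their listed bounds, among them 5 in RPL4, 3 in RPS12, 3 in RPL17-C18orf32 and 1 in RPL32. That is 26.1% of the cytosolic genes, against 5.56% (1 of 18, MRPL39) of the mitochondrial genes and 1.83% (84 of 4591) of all protein-coding genes tested. The snoRNA genes had at most 135 counts in any library, against at least 240 for any cytosolic member. The mitochondrial genes MRPS11 and MRPL46 lie 350 bases apart on chromosome 1, and their log2 fold changes from P1 to P28 were -0.19 ± 0.12 and -0.07 ± 0.14. RPS29 and RPL36AL lie 15007 bases apart on the same chromosome, and their log2 fold changes from P1 to P28 were -0.15 ± 0.17 and 0.38 ± 0.18. In all, 12 cytosolic and 10 mitochondrial genes overlap another gene in the listed positions, which carry no strand, and how the counting shared reads between overlapping genes is not given in the sources used here.

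The rest of the translation machinery gave the setting. Of 64 listed cytosolic translation factors 19 were tested, and from P7 to P28 8 rose and 0 fell by edgeR at an adjusted p under 0.05, where 8.34% of all genes rose and 10.5% fell, with a median log2 fold change of 0.37. From P1 to P28 6 rose and 1 fell, where 7.38% of all genes rose and 7.93% fell, and from P1 to P7 none was called, with a median of -0.03. The 3 with the smallest p from P1 to P28 were EEF2, which moves the ribosome along the mRNA (0.76 ± 0.12, edgeR adjusted p = 0.00158), BTF3, a part of the complex that meets the nascent chain (0.57 ± 0.12, adjusted p = 0.00761), and EIF2A, an initiation factor (0.51 ± 0.12, adjusted p = 0.0152). EEF2 stood at 6004, 5506 and 5849 CPM at P1, 6209, 5478 and 6227 at P7 and 10363, 9309 and 9691 at P28, so that it did not share the low level of the cytosolic ribosomal proteins at P7.

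Of 117 genes listed for cytosolic ribosome assembly 30 were tested, with 3 higher from P7 to P28 and 1 higher from P1 to P28, MPHOSPH10 of the small-subunit processome (0.59 ± 0.17, edgeR adjusted p = 0.0332). Over all genes 8.34% and 7.38% were called higher in these comparisons, so the first count was near that share and the second below it. Their median log2 fold change was -0.06 from P1 to P7 and 0.22 from P7 to P28. Of 77 genes of mitochondrial translation and mitoribosome assembly 21 were tested, and 1 was called, QRSL1, which helps to charge the mitochondrial glutamine tRNA and was lower at P28 than at P1 (-0.56 ± 0.17, edgeR adjusted p = 0.0406), where 7.93% of all genes were lower. Their medians were -0.09 from P1 to P7 and 0.02 from P7 to P28, close to those of the mitochondrial ribosomal proteins. Of 30 listed genes that control ribosomal protein synthesis, such as those of mTOR signalling, 8 were tested and none was called by edgeR in any comparison, with 2 at an unadjusted p under 0.05 from P1 to P28 and 2 from P7 to P28, where 30.7% and 33% of all genes had one.

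The respiratory chain, whose core subunits the mitochondrial ribosome makes, was measured through 22 nuclear-encoded subunits and ATP synthase genes. From P1 to P28 7 of them were lower and 0 higher by edgeR, where 7.93% of all genes were lower, with a median log2 fold change of -0.34. From P1 to P7 2 were lower, where 0.543% of all genes were, with a median of -0.35. From P7 to P28 1 was lower, where 10.5% of all genes were, with 10 of 22 above 0 and a median of -0.002. The 3 with the smallest p from P1 to P28 were COX8A of cytochrome oxidase (-0.99 ± 0.15, edgeR adjusted p = 0.00159), NDUFA2 of complex I (-1.09 ± 0.19, adjusted p = 0.00289) and COX7A2, again of cytochrome oxidase (-1.11 ± 0.27, adjusted p = 0.0169). The mitochondrial ribosomal proteins, at a median of -0.09 from P1 to P28, had the smaller change, and the difference between the lists was not tested.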

How the data were processed

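Total RNA from hearts of 12 pigs, 3 at each of P1, P3, P7 and P28, was depleted of ribosomal RNA (RiboZero Gold) and sequenced by CD Genomics. The study's methods name the TruSeq Stranded Total RNA kit and the labels name another directional kit. Raw read counts per gene were deposited by the authors. For alignment the study's methods and the submitters' processing notes name STAR 2.7.9a and Sscrofa10.2, with MultiQC 1.11 for quality control. The methods give them for the circular RNA search and do not say whether the gene counts came from the same alignments. The counter, strand setting and treatment of multiply matching reads are not given in the sources used here. The listed positions of the 40 members found by symbol in RefSeq Sscrofa11.1 overlap the genes there. The last line of the table has no counts and was left out. The circular RNA and miRNA tables were not used here. The totals and counts cover all members tested, and 3 cytosolic members are not reported by name here.

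Columns were matched to ages by name. Their numbers, 4 to 6, differ from the sample numbers of the labels, so they only name libraries. Genes reaching 10 counts in 3 or more of 12 libraries were tested with edgeR 4.0.16 (quasi-likelihood test, TMM, 4 ages in the same fit) in R 4.3.3, with Benjamini-Hochberg adjustment over 5526 genes, and the test was tested on simulated data. CPM are TMM-scaled. Logarithms in the heat map were taken without a prior count, and those behind the correlations of library deviations with a prior count of 2. Plots used Python 3.11.15 with matplotlib 3.10.9. The libraries come from separate pigs by the study's description. Alternatives were RLE scaling, scaling on protein-coding genes, DESeq2 1.42.0, other filters, 2 ages per fit, a block by number, the thresholds of the study and leaving out each library. The members, gene lists and tests were chosen with earlier results of these data known. Named genes were those past the test, extremes per kilobase, paralogs and disease genes, with others marked where named.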

Additional observations from a re-analysis of the deposited data

How the results depend on the processing

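The cytosolic medians from P1 to P7 and from P7 to P28 kept their direction in all settings tried, RLE scaling, scaling on protein-coding genes and a filter of 10 counts in all 12 libraries among them: the cytosolic median from P1 to P7 lay between -0.33 and -0.31 over 7 settings and that from P7 to P28 between 0.38 and 0.41. No gene past the test changed sign. RLE scaling, scaling on protein-coding genes and the stricter filter moved no count of calls by over 1.5 times, and other settings did. With DESeq2, 3 cytosolic genes were called from P1 to P7, 13 from P7 to P28, and 2 mitochondrial genes from P7 to P28. Without a filter there were 2 cytosolic calls from P1 to P7, and 0 cytosolic and 0 mitochondrial calls from P1 to P28. With only the 2 ages compared in a fit there were 2 cytosolic calls from P1 to P7, 3 from P1 to P28 and 14 from P7 to P28, and 2 mitochondrial calls from P7 to P28. With the thresholds of the study there were 4 cytosolic calls from P1 to P7 and 0 mitochondrial calls from P1 to P28. With the replicate number as a block there were 0 cytosolic calls from P1 to P7 and 2 from P1 to P28. The cause of these moves was not tested. Deviations of libraries with the same number correlated between -0.19 and 0.33, with 5 of 18 pairs over 0.1. Those of libraries with different numbers correlated between -0.26 and 0.25, with 6 of 36 pairs over 0.1. With so few libraries per age these values cannot decide whether the numbers mark anything shared.

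Leaving out each library in turn gave 0 to 2 cytosolic calls from P1 to P7, 0 to 3 from P1 to P28 and 2 to 14 from P7 to P28, and 0 to 1 mitochondrial calls from P1 to P28 and 0 to 2 from P7 to P28. The cytosolic median then lay between -0.42 and -0.23 from P1 to P7 and between 0.29 and 0.49 from P7 to P28, and the mitochondrial median from P1 to P3 between -0.17 (without P3_6) and 0.072 (without P3_5). The ratio of summed levels of P28 to P7 lay between 1.22 and 1.39 for the cytosolic and between 1.00 and 1.04 for the mitochondrial genes. With 3 pigs per age and 1 library of each, the spread between libraries, not depth, limits single genes.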

Other observations

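Some gene IDs carry no name in the count table but have a ribosomal protein symbol in the Ensembl names given for the pig, so the rule did not take them as members. Of these 4 genes, RPL7A, a large-subunit protein, was at 1876, 2091 and 2029 CPM at P1, 1523, 1484 and 1802 at P7 and 2592, 2407 and 2085 at P28, with a log2 fold change from P7 to P28 of 0.56 (edgeR adjusted p = 0.00758). RPL14, also of the large subunit, was at 858, 985 and 914, 709, 646 and 829 and 1149, 1035 and 1029 CPM at the same ages, with 0.56 (adjusted p = 0.0202). Both were higher at P28 than at P7 in 3 of 3 libraries.

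MRPS12, a protein of the decoding centre of the mitochondrial ribosome, was at 82.3, 87.8 and 104 CPM at P1, 73.3, 79.5 and 68.03 at P7 and 40.6, 52.7 and 41.9 at P28, and fell from P1 to P28 with a log2 fold change of -1.02 (edgeR adjusted p = 0.00584) and from P7 to P28 with -0.71 (adjusted p = 0.0271), a larger change than that of any named mitochondrial member. MRPS6, of the small subunit, had 0.41 from P7 to P28 (adjusted p = 0.161). RPSA, a cytosolic small-subunit protein whose name holds no number, was at 839, 897 and 899 CPM at P1, 699.8, 626 and 834 at P7 and 929, 952 and 819 at P28, and was called in none of the 4 comparisons, with an adjusted p of 0.105 at the least.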
